A study of Homo sapiens with 12 samples.

Results

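The 8 hepatocyte identity transcription factors were followed across 12 RNA sequencing libraries of HepG2 cells: HNF4A, FOXA1, FOXA2, FOXA3, CEBPA, ONECUT1, PROX1 and NR5A2. They were taken by gene name, and are 8 of the 58735 genes in the count table. All 8 passed the filter on low counts, which left 17115 genes for testing. HepG2 is an established human liver cancer line. Its cells received nobiletin together with sorafenib (SOR+NOB), nobiletin alone (NOB), sorafenib alone (SOR) or vehicle alone (Control), in 3 libraries each. Nobiletin, a polymethoxylated flavone of citrus peel, was given at 5 µM, and sorafenib, a kinase inhibitor used against liver cancer, at 2 µM, alone and combined. All groups were grown in the same medium with serum and antibiotics, carried no other label of genotype or agent, and have no exposure time in the labels. The labels do not say whether the libraries of a group came from separate cultures, so p-values measure only the spread between these libraries, which may be technical.

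Hepatocyte identity is held by a small set of transcription factors that bind each other's genes and, together, the enhancers of secreted plasma proteins, lipoproteins and metabolic enzymes. FOXA proteins, forkhead factors, can open compacted chromatin in the endoderm that gives rise to liver. HNF4A, a nuclear receptor, keeps the mature programme running, and CEBPA, a leucine zipper factor, is known for driving metabolic genes and restraining growth. ONECUT1 (also HNF6) is a cut-homeodomain factor of hepatocytes and bile duct cells, PROX1 is a homeobox factor of the early liver bud that can act as a corepressor, and NR5A2 (also LRH-1) is a nuclear receptor of bile acid and cholesterol genes.

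Promoter windows of the factors were searched for letters that hepatocyte factors are known to bind. HNF4A is transcribed from an upstream promoter called P2 and a downstream promoter called P1, and adult liver mainly uses P1. Windows of 300 bases, 250 before and 50 after each start, were taken from RefSeq (GRCh38.p14) and had entries for 6 of the 8 factors, in 8 windows. FOXA2 and PROX1 are named only. The 4 windows below, of HNF4A, NR5A2 and CEBPA, are the only ones of the 8 in which any of the letters searched for were found. The other NR5A2 window and the windows of FOXA1, FOXA3 and ONECUT1 held none and are not shown. Capitals mark motif letters found by a search of both strands.
HNF4A P2, chr20:44355449-44355748, plus strand: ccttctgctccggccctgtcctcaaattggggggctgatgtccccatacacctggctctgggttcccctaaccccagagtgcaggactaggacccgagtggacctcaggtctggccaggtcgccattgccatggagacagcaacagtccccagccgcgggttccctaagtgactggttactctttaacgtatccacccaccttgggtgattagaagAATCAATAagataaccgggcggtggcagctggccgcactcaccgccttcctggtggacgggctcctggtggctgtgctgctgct
HNF4A P1, chr20:44400989-44401288, plus strand: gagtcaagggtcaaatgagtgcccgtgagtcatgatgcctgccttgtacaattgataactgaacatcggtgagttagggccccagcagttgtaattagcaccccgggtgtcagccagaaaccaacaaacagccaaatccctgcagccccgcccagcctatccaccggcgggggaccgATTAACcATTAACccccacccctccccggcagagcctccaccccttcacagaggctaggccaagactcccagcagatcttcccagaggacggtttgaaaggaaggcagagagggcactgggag
NR5A2, chr1:200042341-200042640, plus strand: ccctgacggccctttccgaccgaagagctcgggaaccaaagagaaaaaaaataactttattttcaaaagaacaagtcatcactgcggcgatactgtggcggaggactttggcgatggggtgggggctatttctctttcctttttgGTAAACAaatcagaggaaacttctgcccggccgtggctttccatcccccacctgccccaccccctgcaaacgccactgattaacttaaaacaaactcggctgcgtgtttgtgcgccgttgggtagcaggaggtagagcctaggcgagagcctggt
CEBPA, chr19:33302485-33302784, minus strand: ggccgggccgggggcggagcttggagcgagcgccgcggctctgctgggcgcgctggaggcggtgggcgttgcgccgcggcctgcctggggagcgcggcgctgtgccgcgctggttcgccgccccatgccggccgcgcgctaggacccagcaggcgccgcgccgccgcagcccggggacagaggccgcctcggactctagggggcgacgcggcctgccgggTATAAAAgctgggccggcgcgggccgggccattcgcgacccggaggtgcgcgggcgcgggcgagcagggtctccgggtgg

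In the P2 window the capitals are the ONECUT letters AATCAATA, which begin 34 bases before the start and occur in 0.595% of all 35116 windows. P2 is known to bind ONECUT1. In the P1 window they are 2 copies of the short HNF1 letters GTTAAT on the opposite strand, which begin 73 and 66 bases before the start. These letters were present at least 1 time in 6.88% of windows and at least 2 times in 0.527%. In NR5A2 the capitals are the FOXA letters TGTTTAC on the opposite strand, 105 bases before the start, present in 3.42% of windows. NR5A2 also held 1 copy of GTTAAT on the opposite strand, 27 bases before its start, left in lower case. In CEBPA they are TATAAAA, 30 bases before the start, present in 4.52% of windows. GTTAAT and TATAAAA were added to the search after the windows had been read. The letters CAAAGTCCA for HNF4 (0.384% of windows), TTGCNNAA for C/EBP (10.5%), GTTAATNAT for HNF1 (0.792%) and TCAAGGTCA for NR5A2 (0.353%) were not in any of the 8 windows, which says nothing of the factors beyond these letters and windows. Counts per gene cannot separate P1 from P2 transcripts of HNF4A.

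Total counts were 17945656 to 25669823 per library. SOR+NOB replicate 1 stood apart: against the other SOR+NOB libraries its chi-square per degree of freedom was 27.6 and 19.2, and every other pair within a group lay between 2.78 and 5.58. That library had a count in 20138 genes, and the other 11 libraries had one in 22542 to 25014. It also had the lowest total, 17945656, and the number of genes with a count depends on the total. Changes of the factors in SOR+NOB against Control, and counts of the gene lists there, are therefore given with and without it. The liver label was checked on 8 liver markers, all detected in every group. Some defining markers of other cell types were absent or nearly so. KRT7, AQP1, CD3E and POSTN had 0 counts in all groups, and COL1A1 averaged at most 0.255 CPM in a group. PTPRC had 0 CPM in every group but SOR, at 0.109 CPM. The 8 bile duct and progenitor markers were not all absent, and summed to 455 to 471 CPM in SOR+NOB, 492 to 505 in NOB, 635 to 639 in SOR and 639.8 to 662 CPM in Control. The largest part was SOX9, at 237 CPM in SOR+NOB, 377 in NOB, 385 in SOR and 398 CPM in Control. Group means of EPCAM ran from 87.2 to 160 CPM, of KRT19 from 19.0 to 60.8 CPM and of SPP1 from 6.63 to 53.2 CPM. The 8 intestine markers summed to 332 to 354 CPM in SOR+NOB and 433 to 444 CPM in NOB. In SOR they summed to 622 to 629 CPM, and in Control to 638 to 647 CPM. Nearly all of it was VIL1 (group means 233 to 475 CPM) and LGR5 (113 to 282 CPM), and 6 of the 8 averaged under 1 CPM in each group. The 8 leukocyte markers, nearly all of it LYZ, summed to 209.6 to 231 CPM in SOR+NOB, 708 to 726 in NOB, 332 to 344 in SOR and 599.9 to 625 CPM in Control, and the 8 fibroblast markers to at most 24.9 CPM, nearly all PDGFRB. What part these markers have in the results was not tested.

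The genes lie on GRCh38 at chr20:44355700-44434596 (HNF4A, plus strand), chr14:37589984-37596059 (FOXA1, minus), chr20:22581005-22585455 (FOXA2, minus) and chr19:45863989-45873797 (FOXA3, plus). CEBPA lies at chr19:33299934-33302564 (minus), ONECUT1 at chr15:52756989-52791078 (minus), PROX1 at chr1:213983181-214041502 (plus) and NR5A2 at chr1:200027602-200177424 (plus). All are protein-coding, with counts taken over 2192 exonic bases in FOXA3 to 8928 in PROX1.

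Levels between genes were compared per length, as the authors' FPKM (fragments scaled to gene length and library size). In SOR+NOB, FOXA2 led with 40.1 ± 0.964 FPKM, followed by CEBPA with 32.6 ± 5.95, HNF4A with 27.5 ± 3.16, FOXA3 with 25.3 ± 3.88 and FOXA1 with 20.2 ± 0.371 FPKM (mean ± SD, n = 3 here and below). PROX1 followed with 7.15 ± 1.46, ONECUT1 with 1.18 ± 0.0683 and NR5A2 with 0.136 ± 0.0476 FPKM. The ranges of CEBPA and HNF4A overlapped, as did those of HNF4A and FOXA3. In NOB, HNF4A led with 42.2 ± 0.854 FPKM, before FOXA2 with 22.3 ± 1.16, FOXA3 with 22.2 ± 0.625, FOXA1 with 15.8 ± 0.222, CEBPA with 11.5 ± 1.21 and PROX1 with 10.8 ± 0.524 FPKM. FOXA2 could not be told from FOXA3 there, nor CEBPA from PROX1, because their ranges overlapped. In SOR, HNF4A led with 65.1 ± 0.778 FPKM, before CEBPA with 42.8 ± 1.61, FOXA2 with 32.6 ± 1.43, FOXA1 with 26.4 ± 0.198, PROX1 with 21.3 ± 1.11 and FOXA3 with 21.3 ± 0.341 FPKM. PROX1 and FOXA3 overlapped. In Control, HNF4A led with 40.1 ± 0.751 FPKM, before FOXA2 with 28.5 ± 1.28, PROX1 with 24.8 ± 0.705, FOXA3 with 24.6 ± 0.457, FOXA1 with 16.2 ± 0.830 and CEBPA with 15.4 ± 0.413 FPKM. PROX1 and FOXA3 overlapped in Control, as did FOXA1 and CEBPA. ONECUT1 and NR5A2 stood last in every group, at 1.19 ± 0.223 and 0.502 ± 0.0420 FPKM in NOB, 5.15 ± 0.526 and 0.542 ± 0.00641 FPKM in SOR, and 3.68 ± 0.307 and 0.316 ± 0.0512 FPKM in Control. By these values HNF4A led in NOB, SOR and Control, and FOXA2 in SOR+NOB. The place of CEBPA is uncertain, because 43.4% of its exonic bases lie under antisense genes and the strand setting is not known.

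**Figure D1:**
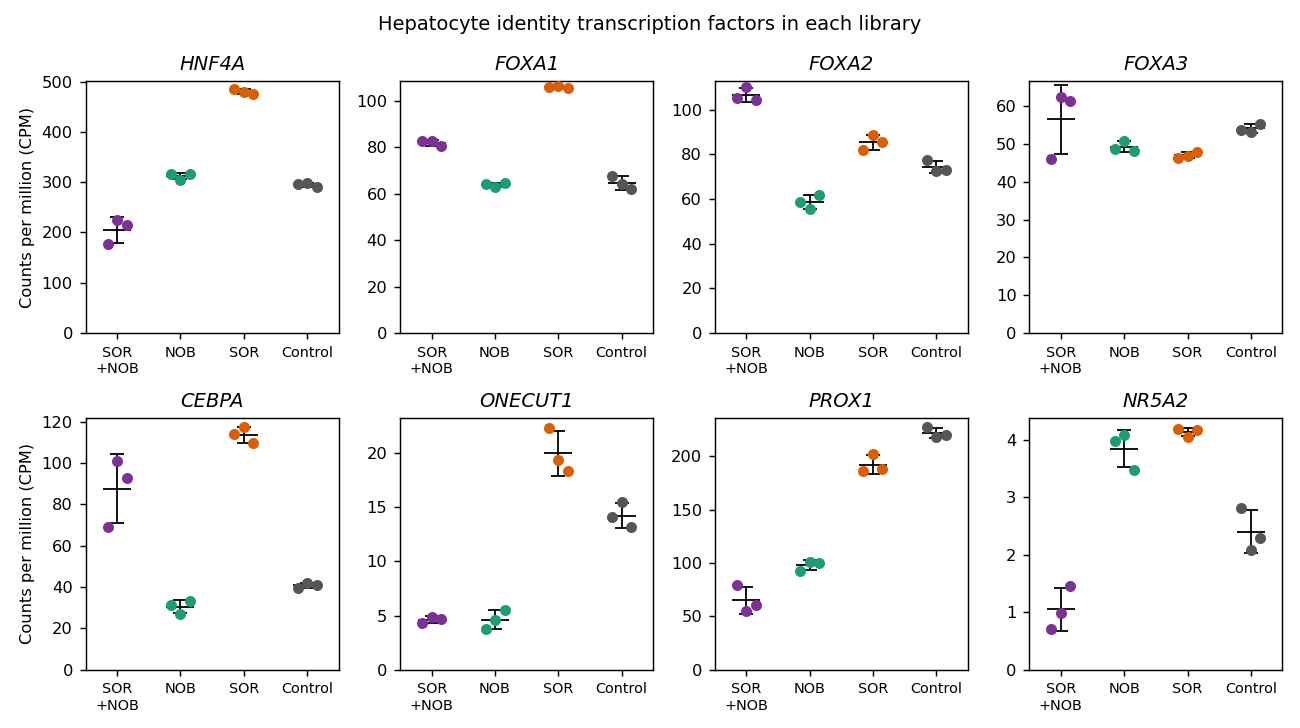
Level of each factor in every library, in CPM (counts scaled to library size, y axis, linear, from 0), by group (x axis). Points are libraries and the bars are mean ± SD (n = 3). HNF4A lies at 176 to 224 CPM in SOR+NOB, below the 290 to 298 CPM of Control, and CEBPA lies at 69.0 to 101 CPM in SOR+NOB against 39.4 to 42.0 CPM in Control.

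Changes between groups were tested per gene on counts with edgeR's quasi-likelihood test, and levels within a gene are given in CPM, counts scaled to library size. All 8 factors differed among the 4 groups, with adjusted p between 4.7e-13 (PROX1) and 0.0276 (FOXA3), in a data set where 78.5% of all tested genes did. In these bulk libraries, fewer cells that use a gene and less RNA per cell cannot be told apart. The comparisons with Control share the same 3 Control libraries, so their values are set side by side and not treated as separate evidence.

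HNF4A, the most abundant factor in Control, had 176, 224 and 215 CPM in SOR+NOB, 316, 305 and 316 in NOB, 486, 479.6 and 475 in SOR, and 296, 298 and 290 CPM in Control. SOR stood highest and SOR+NOB lowest, and neither overlapped any other group. HNF4A fell in SOR+NOB against Control, by 0.52 on the log2 scale (SE 0.0640, adjusted p = 2.84e-07). It rose in SOR (log2 fold change 0.70 ± 0.0636, adjusted p = 5.93e-09), and in NOB its value was 0.09 ± 0.0635 (adjusted p = 0.319). Adding nobiletin to sorafenib lowered HNF4A to 205 ± 25.3 CPM in SOR+NOB, against 479.9 ± 5.43 CPM in SOR (log2 fold change -1.23 ± 0.0645). Without SOR+NOB replicate 1 the change of SOR+NOB against Control was -0.43 ± 0.0408 and that against SOR -1.14 ± 0.0413, and the NOB value passed the threshold (0.08 ± 0.0357, adjusted p = 0.0483).

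FOXA1, a pioneer factor of endoderm, had 82.6, 82.6 and 80.5 CPM in SOR+NOB, 64.2, 62.8 and 64.5 in NOB, 106, 106 and 106 in SOR, and 67.6, 64.2 and 61.8 CPM in Control. NOB and Control overlapped, and SOR+NOB lay between them and SOR. FOXA1 rose in SOR (0.72 ± 0.0571, adjusted p = 8.3e-10) and in SOR+NOB (0.34 ± 0.0573, adjusted p = 1.95e-05) against Control. It was lower in SOR+NOB than in SOR (-0.37 ± 0.0566). With SOR+NOB replicate 1 left out, the values of SOR+NOB were 0.33 ± 0.0555 against Control and -0.38 ± 0.0548 against SOR.

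FOXA2, the second pioneer factor of the family, had 105, 110.2 and 104 CPM in SOR+NOB, 58.7, 55.6 and 61.6 in NOB, 82.2, 88.9 and 85.4 in SOR, and 77.7, 72.7 and 72.8 CPM in Control. The 4 groups did not overlap, with SOR+NOB on top and NOB at the bottom. FOXA2 rose in SOR+NOB (0.52 ± 0.0608, adjusted p = 1.43e-07) and fell in NOB (-0.34 ± 0.0617, adjusted p = 0.000107). Leaving out SOR+NOB replicate 1 gave 0.52 ± 0.0560 for SOR+NOB. The rise in SOR was small (0.20 ± 0.0612, adjusted p = 0.0116) and missed the threshold without Control replicate 2 (adjusted p = 0.0608), Control replicate 3 (0.059) or SOR replicate 2 (0.0652).

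FOXA3, the third forkhead factor of the family, varied least of the 8 between groups. It had 46.0, 62.4 and 61.3 CPM in SOR+NOB, 48.8, 50.8 and 48.2 in NOB, 46.4, 46.9 and 47.8 in SOR, and 53.8, 53.3 and 55.4 CPM in Control. In SOR+NOB, replicate 1 lay below all Control libraries and the other libraries above them. The log2 fold changes against Control were 0.07 ± 0.0864 in SOR+NOB (adjusted p = 0.522), -0.14 ± 0.0865 in NOB (adjusted p = 0.235) and -0.20 ± 0.0872 in SOR (adjusted p = 0.0677). Without SOR+NOB replicate 1 all of them passed the threshold, at 0.18 ± 0.0634 (adjusted p = 0.0093), -0.14 ± 0.0577 (adjusted p = 0.0465) and -0.20 ± 0.0585 (adjusted p = 0.00285). FOXA3 was higher in SOR+NOB than in SOR (0.27 ± 0.0872, adjusted p = 0.0104), a call lost without SOR replicate 1 (adjusted p = 0.0541), SOR+NOB replicate 2 (0.0707) or SOR+NOB replicate 3 (0.0669). It was 0.39 ± 0.0641 without SOR+NOB replicate 1.

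CEBPA had 69.0, 101 and 92.6 CPM in SOR+NOB, 31.4, 27.0 and 33.3 in NOB, 114, 117 and 109.7 in SOR, and 39.4, 42.0 and 41.0 CPM in Control. Every library with sorafenib lay above every library without it, and NOB lay below Control. CEBPA rose in SOR (1.48 ± 0.103, adjusted p = 2.11e-10) and in SOR+NOB (1.11 ± 0.103, adjusted p = 7.62e-09), and fell in NOB (-0.41 ± 0.107, adjusted p = 0.0039). Of all tested genes, 6.60% had a larger change than CEBPA in SOR. CEBPA was lower with nobiletin both with sorafenib (SOR+NOB against SOR, -0.37 ± 0.0989) and without it (-0.41 in NOB against Control). The difference of these changes was 0.04, with a 95% interval of -0.26 to 0.34. Without SOR+NOB replicate 1 the change with sorafenib was -0.23 ± 0.0605 and the rise of SOR+NOB over Control 1.24 ± 0.0632. CEBPA is a single-exon gene, and 43.4% of its 2631 exonic bases lie under the antisense genes AC008738.3 and AC008738.5 of the annotation. Both had 0 counts in all 12 libraries, and the strand setting of the counting is not given in the sources used here, so CEBPA levels are uncertain and reads of the opposite strand cannot be told apart.

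ONECUT1 had 4.29, 4.89 and 4.71 CPM in SOR+NOB, 3.77, 4.60 and 5.49 in NOB, 22.3, 19.3 and 18.3 in SOR, and 14.1, 15.5 and 13.1 CPM in Control. Both groups with nobiletin lay far below both groups without it. ONECUT1 fell in SOR+NOB (-1.61 ± 0.147, adjusted p = 2.72e-09) and in NOB (-1.62 ± 0.145, adjusted p = 6.25e-09), and rose in SOR (0.49 ± 0.131, adjusted p = 0.00419). Only 3.98% of tested genes had a larger change than ONECUT1 in NOB. SOR+NOB against NOB gave 0.01 ± 0.159, with a 95% interval of -0.32 to 0.34. With SOR+NOB replicate 1 left out, SOR+NOB gave -1.57 ± 0.154 against Control and 0.05 ± 0.168 against NOB. Its paralogue ONECUT2 had 55.1 ± 7.81 CPM in SOR+NOB, 50.4 ± 3.05 in NOB, 53.3 ± 2.45 in SOR and 67.8 ± 3.43 CPM in Control, and fell in SOR+NOB (-0.30 ± 0.0840), NOB (-0.43 ± 0.0840) and SOR (-0.35 ± 0.0842). ONECUT3, the other paralogue, had 0 counts in all libraries.

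PROX1 had 79.3, 55.1 and 60.7 CPM in SOR+NOB, 92.6, 101 and 100.4 in NOB, 186, 202 and 188 in SOR, and 227, 218 and 220 CPM in Control. The groups did not overlap, and the lowest levels again came with nobiletin. PROX1 fell in SOR+NOB (-1.77 ± 0.0900, adjusted p = 6.52e-13) and in NOB (-1.18 ± 0.0875, adjusted p = 8.13e-10), and 11.7% of tested genes had a larger change in SOR+NOB. In SOR the value was -0.21 ± 0.0856 (adjusted p = 0.0586), and without SOR+NOB replicate 1 it passed at -0.21 ± 0.0430 (adjusted p = 4.41e-05). The fall in SOR+NOB was -1.94 without that library (SE 0.0540).

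NR5A2 was scarce, with 13, 23 and 32 counts in SOR+NOB, 95, 86 and 86 in NOB, 100, 73 and 82 in SOR, and 64, 44 and 50 counts in Control. In CPM these were 0.715, 0.987 and 1.45 in SOR+NOB, 3.98, 4.08 and 3.47 in NOB, 4.18, 4.05 and 4.16 in SOR, and 2.81, 2.09 and 2.30 CPM in Control. SOR+NOB lay lowest, and both groups with a compound given alone lay above Control. NR5A2 fell in SOR+NOB (-1.17 ± 0.269, adjusted p = 0.000644) and rose in NOB (0.67 ± 0.236, adjusted p = 0.0273) and in SOR (0.78 ± 0.237, adjusted p = 0.0106). The rise in NOB missed the threshold without Control replicate 2 (adjusted p = 0.123), Control replicate 3 (0.0911), NOB replicate 1 (0.0803) or NOB replicate 2 (0.0905), and that in SOR without Control replicate 2 (0.0579). The fall in SOR+NOB was -0.99 ± 0.293 without its replicate 1.

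**Figure D2:**
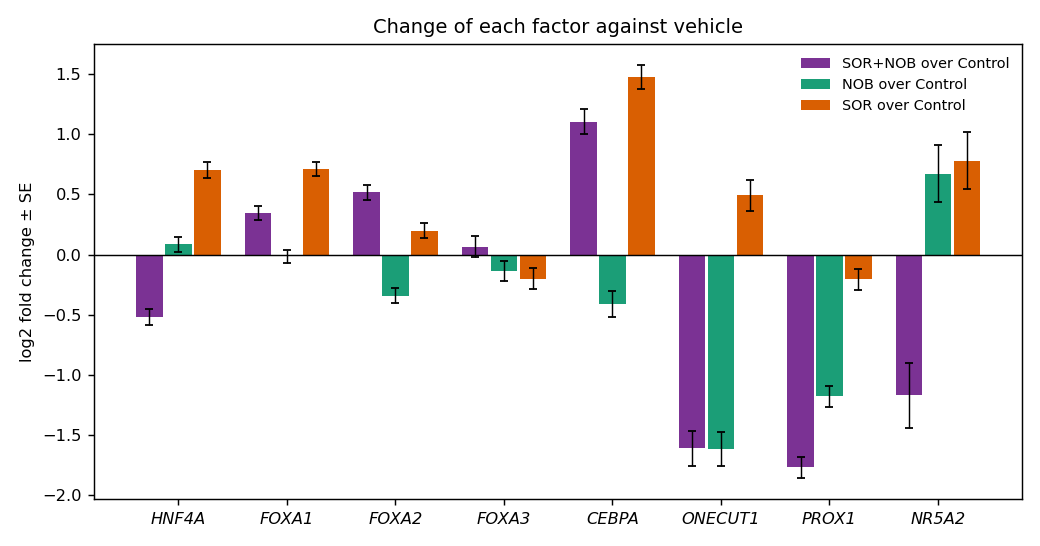
log2 fold change ± SE (y axis) of each factor (x axis) in SOR+NOB, NOB and SOR over Control, from edgeR. ONECUT1 and PROX1 are lowest in both nobiletin groups (-1.61 and -1.77 in SOR+NOB, -1.62 and -1.18 in NOB), and CEBPA is highest in SOR (1.48).

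Counted by comparison, 7 of the 8 factors were called in SOR+NOB against Control, 3 higher (FOXA1, FOXA2, CEBPA) and 4 lower (HNF4A, ONECUT1, PROX1, NR5A2). Over all tested genes, 64.2% were called there, 32.2% higher and 32% lower. In NOB against Control 5 were called, 1 higher (NR5A2) and 4 lower (FOXA2, CEBPA, ONECUT1, PROX1), beside 38.2% of all genes, 18.9% higher and 19.2% lower. In SOR against Control 6 were called, 6 higher and 0 lower, beside 41% of all genes, 21.7% higher and 19.3% lower. FOXA3 and PROX1, the factors not called in SOR, had negative values, with unadjusted p of 0.0294 and 0.0248. PROX1 was called lower in SOR without the filter (adjusted p = 0.0074), with protein-coding genes only (0.0434) and with only SOR and Control fitted (4.54e-06). Leaving out SOR+NOB replicate 2 also gave that call (0.0147). FOXA3 was called lower with protein-coding genes only (0.0478), with only SOR and Control fitted (0.00136) and without SOR+NOB replicate 2 (0.0454). Without SOR+NOB replicate 1, which enters every fit through the shared spread, 8, 7 and 8 factors were called in SOR+NOB, NOB and SOR against Control.

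Between treated groups the shares were as follows. In SOR+NOB against SOR, 8 factors were called, 2 higher (FOXA2, FOXA3) and 6 lower, beside 63% of all genes, 31.4% higher and 31.6% lower. The falls were largest in ONECUT1 (-2.11 ± 0.146), NR5A2 (-1.96 ± 0.261), PROX1 (-1.57 ± 0.0898) and HNF4A. In SOR+NOB against NOB, 7 were called, 4 higher and 3 lower, beside 60.7% of all genes, 30.3% higher and 30.4% lower. The higher ones were CEBPA (1.52 ± 0.105), FOXA2 (0.86 ± 0.0614), FOXA1 (0.36 ± 0.0572) and FOXA3 (0.20 ± 0.0865, adjusted p = 0.0482), and the lower ones NR5A2 (-1.85 ± 0.260), HNF4A (-0.61 ± 0.0640) and PROX1 (-0.59 ± 0.0896). The FOXA3 call was lost in all 8 alternative fits (adjusted p = 0.0538 with the replicate block) and when leaving out any 1 library other than SOR+NOB replicate 1, whose removal gave 0.32 ± 0.0634 (adjusted p = 1.4e-05). In NOB against SOR, 6 were called, 0 higher and 6 lower, beside 40.5% of all genes, 19.8% higher and 20.7% lower. ONECUT1 (-2.11 ± 0.144), CEBPA (-1.89 ± 0.105) and PROX1 (-0.97 ± 0.0875) differed most, and FOXA3 (0.07 ± 0.0873) and NR5A2 (-0.11 ± 0.227) were not called. In all 6 comparisons a larger share of the 8 factors than of all genes was called, and the 8 are too few to read more from a share.

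The design also asks whether nobiletin acted alike with and without sorafenib. The interaction, the nobiletin effect with sorafenib minus that without, was called for 6 of 8 factors, 2 higher and 4 lower, beside 52% of all genes, 25.1% higher and 26.9% lower. NR5A2 had the largest (-2.63 ± 0.352, adjusted p = 1.65e-06), larger than all but 6.23% of tested genes: nobiletin raised it alone (0.67) and lowered it with sorafenib (-1.96). The sum of its single log2 changes, 1.46, lay far from the -1.17 observed in SOR+NOB. HNF4A had an interaction of -1.31 ± 0.0902 (adjusted p = 5.55e-11), with a summed value of 0.79 and an observed one of -0.52. FOXA2 turned the other way, with an interaction of 0.66 ± 0.0865 (adjusted p = 1.17e-06): nobiletin lowered it alone (-0.34) and raised it with sorafenib (0.32). FOXA3 gave 0.41 ± 0.123 (adjusted p = 0.00834), PROX1 -0.39 ± 0.124 (adjusted p = 0.0131) and FOXA1 -0.36 ± 0.0807 (adjusted p = 0.000795). ONECUT1 gave -0.49 ± 0.206 (adjusted p = 0.0528), and CEBPA 0.04 ± 0.145 (adjusted p = 0.837), with a summed value of 1.07 and an observed one of 1.11. The ONECUT1 interaction passed the threshold with DESeq2 (adjusted p = 0.0492), limma on log2(FPKM + 1) (0.023) and protein-coding genes only (0.0294). It also passed without Control replicate 2 (0.0449), NOB replicate 1 (0.0174), SOR replicate 3 (0.0436) or SOR+NOB replicate 2 (0.0495). The other alternatives left it uncalled. The interaction without SOR+NOB replicate 1 was -2.44 for NR5A2, -1.22 for HNF4A, 0.67 for FOXA2, 0.53 for FOXA3, -0.55 for PROX1 and -0.37 for FOXA1, all still called. For CEBPA it was 0.18 ± 0.0872 (adjusted p = 0.0789) and for ONECUT1 -0.44 ± 0.205 (adjusted p = 0.0615), and the observed CEBPA value was 1.24.

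**Figure D3:**
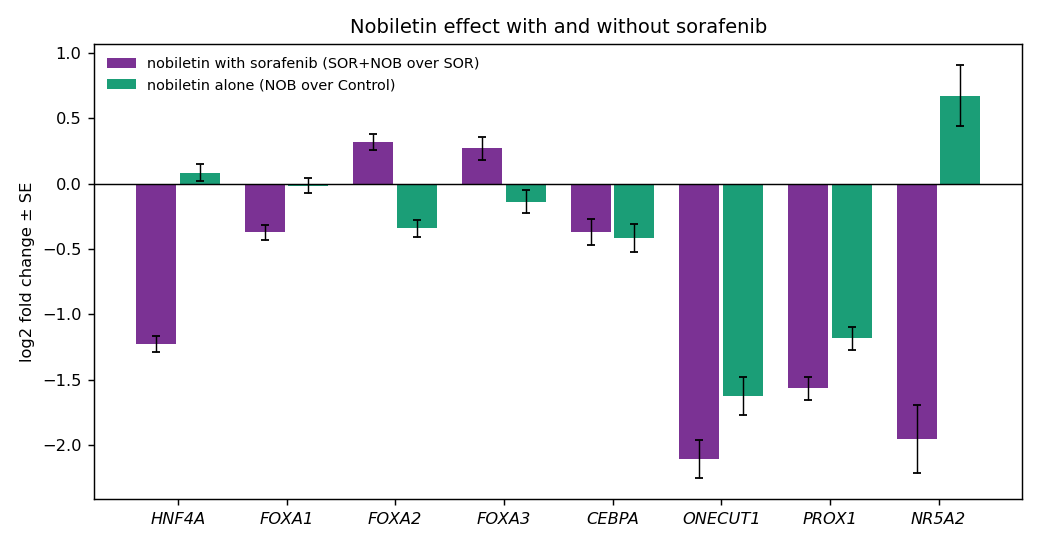
Nobiletin effect on each factor (x axis) as log2 fold change ± SE (y axis), with sorafenib (SOR+NOB over SOR) and without (NOB over Control). The effects have opposite signs for NR5A2 (-1.96 and 0.67) and FOXA2 (0.32 and -0.34), and the same sign for CEBPA (-0.37 and -0.41; -0.23 and -0.41 without SOR+NOB replicate 1).

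The FOXA family bind the same forkhead motif, so their shares of the summed FOXA level were compared. The sum of FOXA1, FOXA2 and FOXA3 was 85.5 ± 3.87 FPKM in SOR+NOB, 60.3 ± 0.817 in NOB, 80.2 ± 1.79 in SOR and 69.3 ± 2.05 FPKM in Control. FOXA2 made up 47.0 ± 2.00% of it in SOR+NOB, 36.9 ± 1.44% in NOB, 40.6 ± 0.877% in SOR and 41.1 ± 0.622% in Control. FOXA1 made up 23.6 ± 1.42% in SOR+NOB, 26.3 ± 0.180% in NOB, 32.9 ± 0.577% in SOR and 23.3 ± 0.654% in Control. Without SOR+NOB replicate 1, FOXA2 made up 45.4 and 46.2% in SOR+NOB, FOXA1 22.7 and 22.9%, and FOXA3 31.1 and 31.7%. The balance thus moved towards FOXA2 in SOR+NOB and towards FOXA1 in SOR, and in both cases no library overlapped Control. FOXA3 made up 29.4 ± 3.38% in SOR+NOB, 36.8 ± 1.47% in NOB, 26.5 ± 0.447% in SOR and 35.6 ± 1.19% in Control. With 3 libraries against 3, the exact two-sided permutation test cannot give p below 0.1, which both of these shifts reached (0.13 after Benjamini-Hochberg adjustment over 30 tests of shares, sums and ratios), so they miss the threshold by design.

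**Figure D4:**
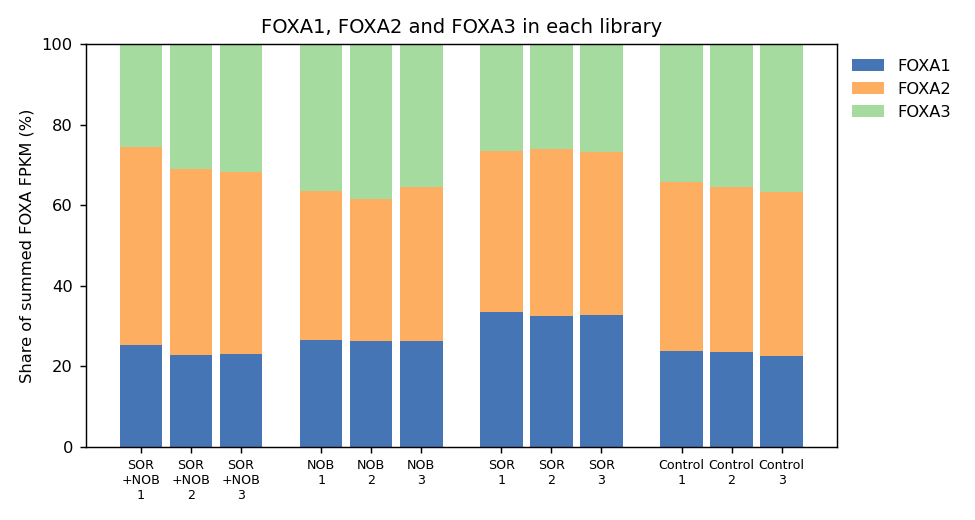
Share of FOXA1, FOXA2 and FOXA3 in their summed FPKM (y axis, percent) in each of the 12 libraries (x axis, group and replicate). FOXA2 takes 45.4 to 49.2% in SOR+NOB against 40.7 to 41.8% in Control, and FOXA1 takes 32.5 to 33.6% in SOR against 22.6 to 23.8% in Control.

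CEBPA was also set against CEBPB, the family member known for acute phase and stress responses. The log2 ratio of CEBPA to CEBPB in FPKM was -1.74 ± 0.105 in SOR+NOB, -3.42 ± 0.127 in NOB, -1.82 ± 0.0387 in SOR and -3.29 ± 0.0442 in Control. By these values CEBPB stayed the more abundant transcript in all groups. The level of CEBPA is uncertain here too, because 43.4% of its exonic bases lie under antisense genes and the strand setting is not known. The ratio was higher in both sorafenib groups than in Control, without overlap (exact permutation p = 0.1 each, the smallest possible). Among 9 paralogues of the factors, 7 were tested. In SOR+NOB 2 rose and 3 fell, in NOB 1 rose and 4 fell, and in SOR 2 rose and 1 fell, with medians of -0.16, -0.29 and 0.03. Of all genes, 64.2%, 38.2% and 41% were called in these comparisons, with medians of -0.02, 0.01 and 0.00. Leaving out SOR+NOB replicate 1 kept the count in SOR+NOB at 2 and 3, with a median of -0.06. CEBPG, a partner of other C/EBP and ATF proteins, rose in SOR+NOB (1.61 ± 0.0581), NOB (0.35 ± 0.0578) and SOR (0.94 ± 0.0578). CEBPB fell in SOR+NOB (-0.45 ± 0.0690) and in NOB (-0.29 ± 0.0687), and was at 0.01 ± 0.0686 in SOR. HNF4G, the paralogue of HNF4A, rose in SOR (0.44 ± 0.0847). NR5A1, the paralogue of NR5A2, had 89.6 ± 12.6 CPM in SOR+NOB, 69.7 ± 1.47 in NOB, 102 ± 2.24 in SOR and 100 ± 5.07 CPM in Control. Group means of NR5A2 itself ran from 1.05 to 4.13 CPM, and CPM is not scaled to gene length.

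Noncoding neighbours did not all move with their factors. HNF4A-AS1, antisense within HNF4A with 0 shared exonic bases, had 2.14, 2.96 and 4.03 CPM in SOR+NOB, 5.36, 5.50 and 3.67 in NOB, 26.2, 23.0 and 26.05 in SOR, and 3.30, 2.99 and 3.76 CPM in Control. SOR lay far above the other groups, with a log2 fold change of 2.90 ± 0.184 over Control (adjusted p = 1.82e-11). The value was 0.52 ± 0.198 in NOB (adjusted p = 0.0406) and -0.12 ± 0.211 in SOR+NOB (adjusted p = 0.621; 0.05 ± 0.197 without SOR+NOB replicate 1), and the interaction was -3.55 ± 0.272. Without the strand setting, reads of unspliced HNF4A cannot be told from those of HNF4A-AS1, which lies within HNF4A. CEBPA-DT, which starts 293 bases from CEBPA on the other strand, had 0.880, 2.96 and 1.90 CPM in SOR+NOB, 6.86, 6.12 and 5.57 in NOB, 9.53, 10.4 and 8.99 in SOR, and 4.79, 4.22 and 5.37 CPM in Control. It rose in SOR (1.004 ± 0.224, adjusted p = 0.000929) as CEBPA did, and fell in SOR+NOB (-1.29 ± 0.257, adjusted p = 0.000153; -0.98 ± 0.213 without replicate 1), where CEBPA rose. PROX1-AS1 rose in SOR+NOB (1.11 ± 0.209, adjusted p = 7.96e-05) and NOB (0.77 ± 0.210, adjusted p = 0.00567), where PROX1 fell. It overlaps 171 exonic bases of PROX1, 1.92% of them, so reads there cannot be assigned without the strand. FOXA2's neighbour LINC00261 had 2, 10, 4 and 20 counts summed over SOR+NOB, NOB, SOR and Control, too few to test. FOXA1 shares 16 exonic bases with TTC6 and FOXA2 shares 70 with AL121722.1.

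Other liver-enriched transcription factors, a list of 29 that were all tested, moved in both directions. In SOR+NOB against Control 6 rose and 15 fell (median log2 fold change -0.23, against -0.02 over all genes), in NOB 4 rose and 17 fell (-0.29 against 0.01), and in SOR 15 rose and 6 fell (0.26 against 0.00). In SOR+NOB against SOR 4 rose and 19 fell (-0.67 against -0.01). Called in either direction were 64.2% of all genes in SOR+NOB, 38.2% in NOB, 41% in SOR and 63% in SOR+NOB against SOR. Leaving out SOR+NOB replicate 1 gave 7 that rose and 15 that fell in SOR+NOB against Control, with a median of -0.13. HHEX, a homeobox factor of the liver bud, had 10.1 ± 0.599 CPM in SOR+NOB, 41.5 ± 1.81 in NOB, 88.3 ± 2.69 in SOR and 69.9 ± 2.71 CPM in Control (-2.79 ± 0.0776 in SOR+NOB). NR2F1, an orphan receptor, fell in SOR+NOB (-2.96 ± 0.107). NR0B2 (SHP), a repressor that binds HNF4A and NR5A2, fell to 35.0 ± 3.79 CPM in SOR+NOB and 33.9 ± 1.29 in SOR, against 119 ± 1.94 CPM in Control (-1.76 ± 0.0711 and -1.81 ± 0.0714). PPARA, the fatty acid oxidation receptor, fell in SOR+NOB (-0.77 ± 0.0528) and rose in SOR (0.98 ± 0.0513) and NOB (0.37 ± 0.0512). In NOB the strongest calls were falls of CREB3L3 (-1.94 ± 0.0861), a fasting factor, of NR3C1 (-0.86 ± 0.0668), the glucocorticoid receptor, of NR1H4 (-0.79 ± 0.0724), the bile acid receptor, and of HHEX (-0.75 ± 0.0675). In SOR, NR2F6 (1.503 ± 0.0723) and NR1H4 (1.05 ± 0.0698) rose.

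Coregulators of nuclear receptors, 16 genes that were all tested, gave 5 higher and 9 lower in SOR+NOB, 5 higher and 10 lower in NOB, and 3 higher and 2 lower in SOR (medians -0.20, -0.29 and 0.04). Of all genes, 64.2%, 38.2% and 41% were called there (medians -0.02, 0.01 and 0.00). Leaving out SOR+NOB replicate 1 gave 5 higher and 9 lower in SOR+NOB, and 5 higher and 2 lower in SOR. The acetyltransferase EP300 fell in SOR+NOB (-1.01 ± 0.0646), NOB (-0.46 ± 0.0635) and SOR (-0.24 ± 0.0635). NCOA3, a coactivator, fell in SOR+NOB (-0.51 ± 0.0687) and NOB (-0.36 ± 0.0682) and rose in SOR (0.75 ± 0.0676). PPARGC1A, a coactivator of HNF4A in fasting, fell in SOR+NOB (-0.43 ± 0.0595) and SOR (-0.48 ± 0.0596) and rose in NOB (0.39 ± 0.0586).

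Known targets of the hepatocyte factors were read from a list of 34 genes, 30 of them tested. In SOR+NOB against Control 8 rose and 20 fell (median -0.80), in NOB 4 rose and 19 fell (-0.58), and in SOR 21 rose and 7 fell (1.01), where the medians over all genes were -0.02, 0.01 and 0.00. In SOR+NOB against SOR 1 rose (F2, prothrombin) and 29 fell (-1.71 against -0.01). Called in either direction were 64.2%, 38.2%, 41% and 63% of all genes in these comparisons. Leaving out SOR+NOB replicate 1 gave 8 and 20 in SOR+NOB against Control, with a median of -0.85. The gene with 0 counts in SOR+NOB, CYP7A1, left these medians as they were when put at its bound of 3 counts over the group. APOH, a plasma apolipoprotein, had 444 ± 43.3 CPM in SOR+NOB, 342 ± 7.62 in NOB, 2734 ± 141 in SOR and 1030.4 ± 53.2 CPM in Control. ALB, serum albumin, had 8481 ± 1095 CPM in SOR+NOB, 3094 ± 48.5 in NOB, 21066 ± 597 in SOR and 6428 ± 141 CPM in Control. TF, transferrin, rose in SOR (2.35 ± 0.0539) and was lower in SOR+NOB than in SOR (-2.08 ± 0.0534). SLC2A2, the hepatocyte glucose transporter, fell in SOR+NOB (-1.78 ± 0.0746), NOB (-1.18 ± 0.0721) and SOR (-0.50 ± 0.0707). TTR, transthyretin, fell in SOR+NOB (-1.45 ± 0.0652), and MTTP, which loads lipid onto apolipoprotein B, fell in SOR+NOB (-0.69 ± 0.0709) and rose in SOR (1.249 ± 0.0695). CYP7A1, which catalyses the limiting step from cholesterol to bile acids and is a known NR5A2 target, was picked after its values were seen: it had 0 counts over the 3 SOR+NOB libraries, 41 in NOB, 896 in SOR and 111 in Control. Whether any factor brought about these target levels was not tested. The summed level of the 8 liver markers moved too, at 29779 to 32941 CPM in SOR+NOB, 27192 to 27882 in NOB, 78610 to 81743 in SOR and 42438 to 44528 CPM in Control, and all 8 are also on the target list.

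**Figure D5:**
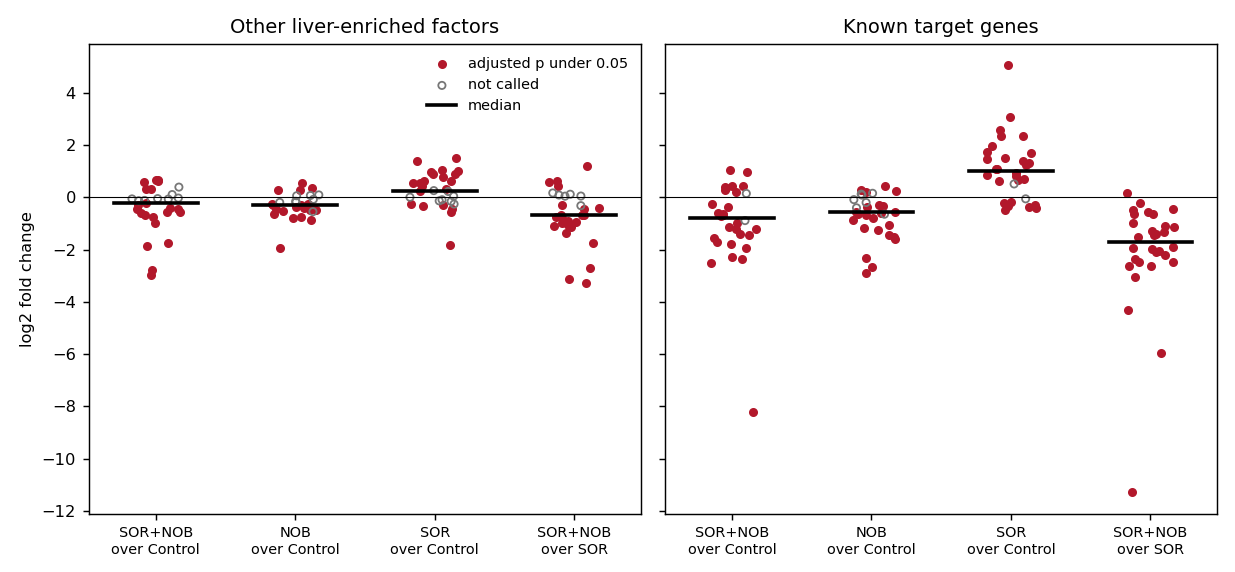
log2 fold change (y axis) of 29 other liver-enriched factors (left) and 30 known targets (right) in 4 comparisons (x axis). Filled points passed adjusted p under 0.05, and bars are medians. Target medians are -0.80 in SOR+NOB, -0.58 in NOB and 1.01 in SOR over Control, and -1.71 in SOR+NOB over SOR. The lowest target point, CYP7A1, has 0 counts in SOR+NOB, so its fitted value is no bound.

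As a description, the protein-coding genes whose log2 CPM followed each factor most closely over the 12 libraries were found among 10117 candidates with a mean of at least 5 CPM. The measure was the root mean square difference (RMSD) of centred log2 CPM. GJB1, the connexin of hepatocyte gap junctions, was nearest to HNF4A (RMSD 0.0764), then EHD1 (0.0879) and ARMC5 (0.0899). Nearest to FOXA1 were IPO8 (0.0746), RAB4A (0.0751) and ALDH1L1 (0.0796), and to FOXA2 IRF2BP2 (0.0621), TMEM94 (0.0679) and WASL (0.0696). IRAK1 (0.0416), PPM1G (0.0450) and KXD1 (0.0582) were nearest to FOXA3. For CEBPA they were GPX3 (0.141), STAP2 (0.201) and TOR3A (0.217), for ONECUT1 CDH16 (0.192), NAALADL1 (0.222) and SCARA3 (0.232), for PROX1 ZNF217 (0.124), PLPPR1 (0.131) and SLC2A2 (0.146), and for NR5A2 MYPOP (0.196), PGBD2 (0.215) and SLC16A13 (0.223). This measure is small for genes that vary little: the root mean square of centred log2 CPM was 0.144 for FOXA3 itself. Among the factors themselves FOXA1 and FOXA2 lay closest (0.273), near their own values of 0.301 and 0.316. Their changes in SOR+NOB against SOR had opposite signs (-0.37 and 0.32), so closest here does not mean that they moved together. CEBPA and NR5A2 lay farthest apart (1.23), so the 8 did not move as a block.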

How the data were processed

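RNA was isolated with TRIzol, per the labels' protocols, which do not say whether poly(A) capture or rRNA removal was used. Reads were aligned with HISAT2 2.0.5 to GRCh38 (hg38) and counted with featureCounts 1.5.0-p3, per the submitters' processing notes. The strand setting, read filters and treatment of multimapped reads are not stated in those notes as used here. The authors deposited raw counts of 58735 genes and FPKM of the same libraries, and 58724 genes have the same start and end in GENCODE 29. The authors' deposited group means of FPKM were not used.

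In R 4.3.3 with edgeR 4.0.16, filterByExpr left 17115 genes, TMM scaled the libraries, and 1 quasi-likelihood fit with the robust option covered the 12 libraries, with a mean for each group. It had 8 residual degrees of freedom and a common biological variation between libraries of 8.44%. Benjamini-Hochberg adjustment ran over all genes, and adjusted p under 0.05 was called. CPM are counts over the TMM-adjusted library size, with totals of 17945656 to 25669823. SE is the log2 fold change divided by the root of F. FPKM served levels between genes and limma 3.58.1 on log2(FPKM + 1 or + 0.1). Alternatives to the count fit were RLE scaling, DESeq2 1.42.0, no filter (33593 genes), a replicate block, protein-coding genes only (12871), only the compared groups, and leaving out each library. Figures used Python 3.11.15 with matplotlib 3.10.9.

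The members and lists were chosen with earlier results of these data known. Named list genes are among the up to 4 with the smallest p in a comparison, ONECUT2, ONECUT3, HNF4G, F2 and CYP7A1 excepted. Replicate numbers did not pair libraries: same-numbered deviations from group means correlated over 0.1 in 1 of 18 pairs (median r 0.00, range -0.20 to 0.19, across genes of at least 5 CPM).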

Additional observations from a re-analysis of the deposited data

Results flagged for a closer look

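In 6 factors the effect of nobiletin differed with and without sorafenib, by the interaction term of the edgeR model. The difference was -1.31 on the log2 scale for HNF4A, -0.36 for FOXA1, 0.66 for FOXA2, 0.41 for FOXA3, -0.39 for PROX1 and -2.63 for NR5A2. Interactions were called for 52% of all tested genes.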

How the results depend on the processing

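No count of called genes or called factors moved by over 1.5 times under any alternative, and of 1098 factor values under alternatives 1020 kept their direction and their side of the threshold, 34 lost the call, 21 gained it and 23 changed sign. All sign changes were in values not called. ONECUT1 in SOR+NOB against NOB became -0.0234 without the filter, -0.00544 with RLE, -0.00538 with DESeq2, -0.000496 with log2(FPKM + 1), -0.0575 with protein-coding genes and -0.00873 with only these groups, and ran from -0.132 to 0.144 when leaving out single libraries. With protein-coding genes, FOXA3 in SOR+NOB against Control became -0.000233 and the CEBPA interaction -0.0137, and leaving out single libraries these ran from -0.0131 to 0.185 and from -0.0776 to 0.178. FOXA1 in NOB against Control then ran from -0.0560 to 0.0156. The PROX1 interaction was lost with both FPKM settings (adjusted p = 0.0623 and 0.0543), and the NR5A2 rise in NOB without the filter (0.0629). NR5A2 fell under the FPKM minimum of 0.5 and has no limma value. With the replicate block 10798 genes were called in SOR+NOB against Control, 6347 in NOB and 6816 in SOR, and among the factors it changed only the FOXA3 call in SOR+NOB against NOB (0.20). FOXA3 in SOR+NOB against SOR was lost with only these groups (0.0594). Without SOR+NOB replicate 1, 8 targets rose and 20 fell in SOR+NOB, 5 and 21 in NOB, and 21 and 7 in SOR. The causes were not tested. Depth limits NR5A2 most, with 13 to 100 counts per library.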
